A study of Mus musculus with 9 samples.

Results

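Primary mouse myoblasts, the dividing progenitors that satellite cells of skeletal muscle give rise to in culture, were compared after 24 h with recombinant BMP4 protein at 100 ng/ml and after 24 h with recombinant GREM1 protein at 500 ng/ml. Each group has 3 arrays, so the comparison uses 6 of the 9 samples of the series. The other 3 arrays are mock-treated cultures; they did not enter the comparison, and are used below to place a level and, in a separate fit of all 9 arrays, to test each treatment against control. All 3 groups were first grown on collagen with 20% fetal bovine serum and basic FGF, and were then moved to DMEM with 2% horse serum, a low-serum medium in which myoblasts can leave the cell cycle and fuse. Neither of the groups compared is untreated and the doses differ, so in this contrast an action of BMP4 and an opposite action of GREM1 cannot be told apart. The sources used here do not state the strain, sex, age or number of the mice, nor whether the replicates were separate cultures, so the p-values measure only the spread between these arrays, which may be technical.

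BMP4 is a secreted ligand of the TGF-beta superfamily: it assembles type I and type II serine/threonine kinase receptors, which phosphorylate SMAD1, SMAD5 and SMAD9, and these enter the nucleus with SMAD4 and act at target genes such as the Id genes. GREM1 (gremlin 1) is a secreted antagonist that binds BMP2, BMP4 and BMP7 and keeps them from their receptors. In skeletal muscle, BMP signalling is known for keeping the progeny of satellite cells dividing and delaying their terminal differentiation, and BMP added to myoblast cultures is known for turning on genes of the bone lineage.

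One probe set was taken for each of 24011 named genes, and 16924 of them were tested. Those 16924 lay above the 30th percentile of the array on at least 3 of the 6 arrays, a limit between 3.89 and 3.97 on the deposited log2 scale; the 7087 dimmer genes were left out. Every difference below is the BMP4 mean minus the GREM1 mean on that log2 scale, where a difference of 1 is a 2-fold ratio, and a gene is called where its limma p-value, adjusted by the Benjamini-Hochberg method over the 16924 genes, is below 0.05. At this threshold 958 genes differed, 5.66% of those tested. Of these, 522 were higher with BMP4 (3.08% of genes tested) and 436 were lower (2.58%). The difference was at least 2-fold for 254 genes, 148 of them higher and 106 lower. On the 958 called genes the 3 BMP4 arrays and the 3 GREM1 arrays did not overlap, which was so for 24.7% of all genes tested. The median difference over all genes tested was 8.8e-05, and 50.0% of genes had the higher mean with BMP4.

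The labelled cell type was checked against its markers, and all 7 myoblast markers lay above the limit for testing. That limit was passed by 16924 of all 24011 genes, so passing it is a weak sign of any cell type. Myod1, the myogenic determination factor, lay between 9.02 and 9.94 over the 9 arrays, and Des, the muscle intermediate filament, between 10.7 and 11.4. Of markers of other cell types on the array, 17 of 22 adipocyte, 15 of 18 pericyte and smooth muscle and 14 of 18 osteoblast genes also passed. So did 11 of 13 Schwann and glial, 12 of 21 endothelial and 12 of 19 cartilage genes. The same was so for 12 of 22 leukocyte genes, 14 of 22 fibroblast and fibro-adipogenic genes and 11 of 13 tendon genes. Among them were Cd68 of macrophages, between 6.26 and 6.67, and Scx of tendon cells, between 9.03 and 10.5, whereas Ptprc, which all leukocytes carry, and the fibro-adipogenic marker Pdgfra were too dim to test. These RNAs come from whole cultures, so fewer cells of a type and less of an RNA in each cell cannot be told apart. The first principal component of the 6 arrays held 57.8% of their variance and separated the groups, with the BMP4 arrays at -12.4, -16.7 and -31.6 and the GREM1 arrays at 23.5, 23.5 and 13.8. The number of called genes depended on single arrays. It fell to 624, 348 or 700 when the first, the second or the third BMP4 array was left out, and to 256, 321 or 661 when the first, the second or the third GREM1 array was. Counts for many of the gene lists are therefore followed by the 6 counts with 1 array left out, in that order. Counts of called members are to be read beside the 5.66% called over all genes tested. Counts of members without overlap are to be read beside the 24.7% of all genes tested.

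**Figure D1:**
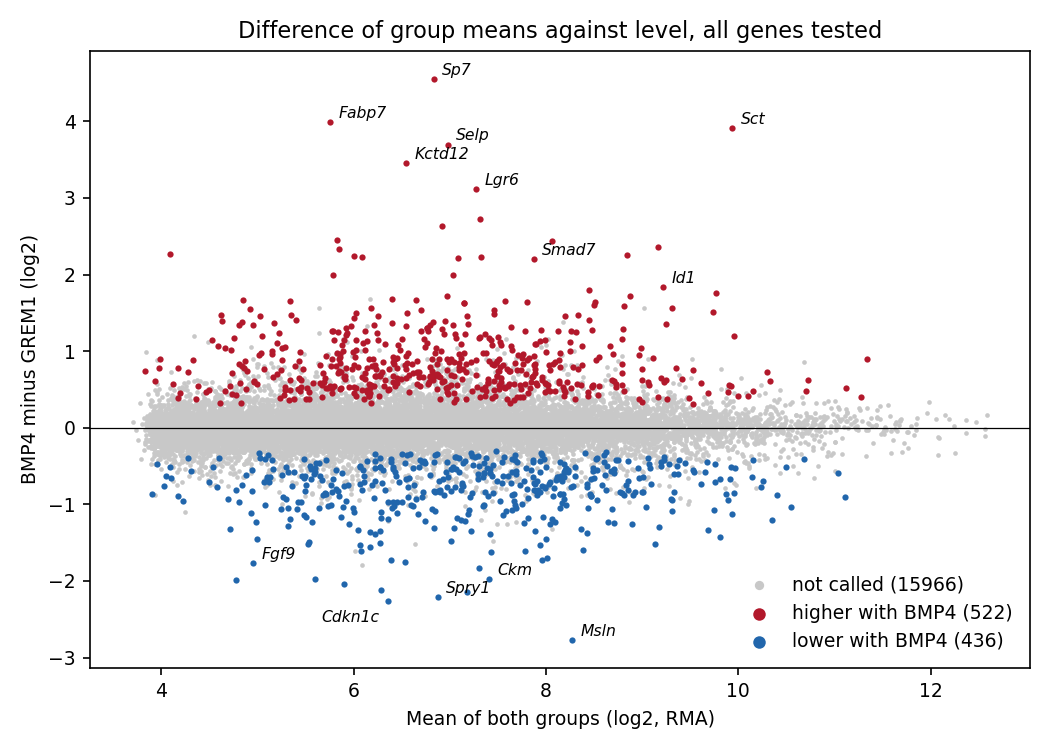
Difference of the group means (BMP4 minus GREM1, log2) against the mean of both groups (log2 RMA value) for the 16924 genes tested, with 522 genes higher with BMP4 in red, 436 lower in blue and the others in grey. The points farthest above 0 reach 4.56 (Sp7) and those farthest below reach -2.77 (Msln).

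The largest difference was that of Sp7 (osterix), a transcription factor that bone-forming cells need. Its values were 9.17, 9.22 and 8.94 with BMP4 and 4.54, 4.65 and 4.48 with GREM1. All BMP4 arrays were far above all GREM1 arrays, and the mock-treated mean of 7.13 lay between the groups. The difference was 4.56 ± 0.10 (SE, n = 3 arrays per group), a 23.5-fold ratio with an adjusted p of 9.11e-06 in limma. Fabp7, a fatty acid-binding protein best known from neural progenitors, read 7.64, 7.94 and 7.67 with BMP4 and 3.79, 3.56 and 3.91 with GREM1. The GREM1 values were all below the limit for testing, so the size of the difference is uncertain, and the mock-treated mean was 5.39. Fabp7 was 1 of 14 called genes with all arrays of a group below that limit. Its difference was 3.99 ± 0.12 (SE; limma adjusted p = 4.98e-05).

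The 15 largest differences in this direction also held genes of other kinds. Sct, the peptide hormone secretin, read 11.64, 11.87 and 12.17 with BMP4 and 7.51, 7.95 and 8.47 with GREM1, a difference of 3.92 ± 0.25 (SE; limma adjusted p = 0.00071). The P-selectin gene Selp, whose product tethers leukocytes, read 9.09, 8.97 and 8.41 against 5.23, 5.03 and 5.12, a difference of 3.70 ± 0.18 (SE; limma adjusted p = 0.000322). On both genes the lowest BMP4 array stood above the highest GREM1 array by more than 3 log2 units. Lgr6, a receptor for the Wnt-potentiating R-spondins, was higher by 3.11, and Ptgs2, the inducible cyclooxygenase of prostaglandin synthesis, by 2.43. Cthrc1, a secreted protein with a collagen-like repeat, was higher by 2.63. Also in this group were Kctd12 (3.46), whose product binds GABA-B receptors, Car8 (2.72) and Car3 (2.36) of the carbonic anhydrase family, the cadherin-related gene Cdhr5 (2.45), and Has2os (2.24), the antisense transcript of the hyaluronan synthase gene Has2. The homeobox gene Prrx2 was higher by 2.26. The remaining members were Ifi203-ps (2.34) and Mndal (2.27), both of the Ifi200 cluster. Mndal spread widely, with 4.29, 5.24 and 6.15 against 2.73, 3.01 and 3.13. All 3 of its GREM1 values were below the limit for testing, so it was tested only because of its BMP4 arrays, and the size of its difference and its rank are uncertain. Of these 15 genes it alone lost its call with an array left out: without BMP4 replicate 2 and without each GREM1 replicate, with a highest adjusted p of 0.131.

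Among the genes lower with BMP4, and so higher with GREM1, Msln came first. Msln encodes mesothelin, a surface glycoprotein of mesothelial cells, and read 7.01, 6.93 and 6.73 with BMP4 and 9.37, 9.56 and 10.03 with GREM1. The groups were far apart, and the difference was -2.77 ± 0.17 (SE; limma adjusted p = 0.00071). Cdkn1c, which encodes the cyclin-dependent kinase inhibitor p57, read 5.37, 5.35 and 4.96 with BMP4 and 7.39, 7.02 and 8.07 with GREM1. Its difference was -2.27 ± 0.26 (SE; limma adjusted p = 0.005). Spry1, a feedback inhibitor of receptor tyrosine kinase signalling, read 6.03, 5.80 and 5.47 against 7.99, 7.95 and 8.01. For Cdkn1c the GREM1 arrays ranged over more than 1 log2 unit, whereas for Spry1 they were nearly equal, and the Spry1 difference was -2.22 ± 0.14 (SE; limma adjusted p = 0.00071). Asb2, the substrate adaptor of a ubiquitin ligase that lowers muscle mass, was lower, at -2.04, and Ckm, the muscle creatine kinase, at -1.98. Ckb, the brain-type creatine kinase, was lower, at -1.70, and the growth factor gene Fgf9 at -1.76. The other genes of the 15 were Ctrb1 (-2.14), a digestive protease precursor, Cyria (-2.11), Dnase1l3 (-1.99), the cyclic nucleotide phosphodiesterase Pde2a (-1.98), the guanylate-binding protein Gbp8 (-1.84), Cd300c (-1.76), Map3k7cl (-1.73) and Tm6sf1 (-1.73). Tm6sf1 was the least stable of them: its call was lost without BMP4 replicate 1 or 2 and without each GREM1 replicate, with a highest adjusted p of 0.16.

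**Figure D2:**
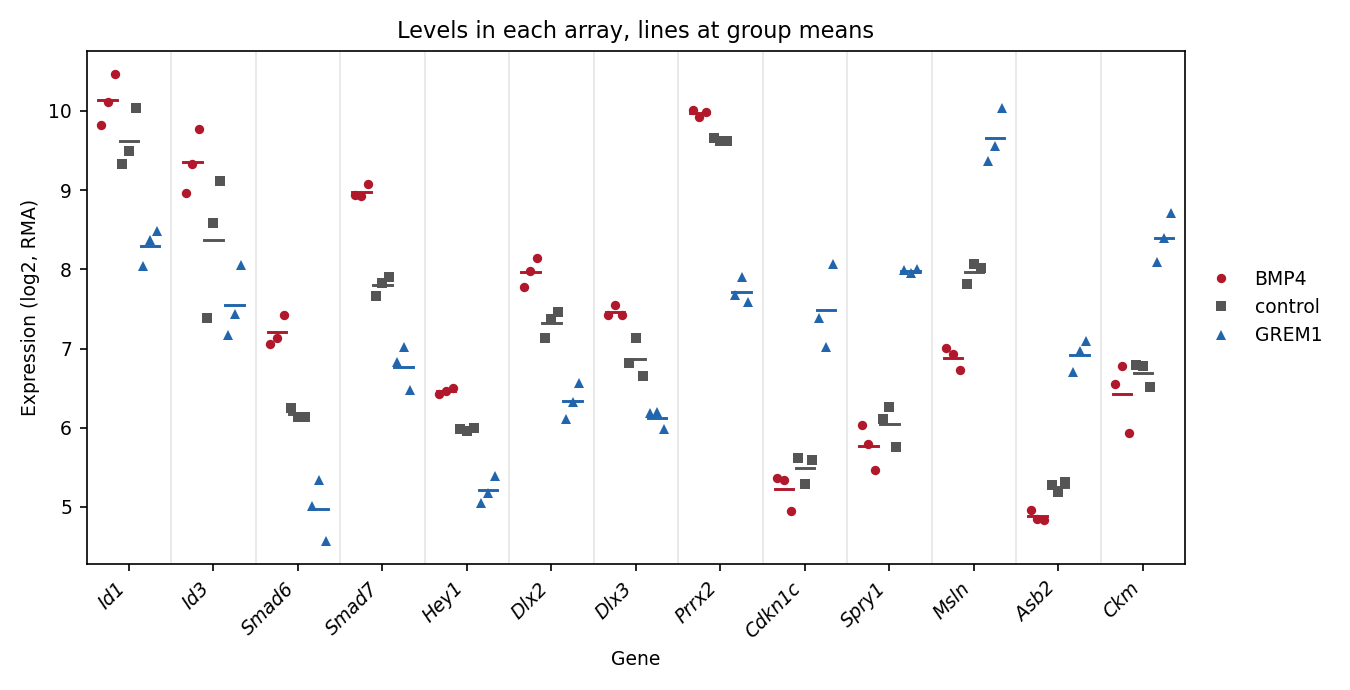
Level (log2 RMA value) of 13 genes in each array, with BMP4 as red circles, mock-treated control as grey squares, GREM1 as blue triangles and lines at the group means. The 8 genes on the left have all BMP4 points above all GREM1 points, and the 5 on the right have all BMP4 points below.

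Genes listed as targets of BMP-activated SMADs were mostly higher with BMP4. The list was written with earlier results of these data known, so its counts are no independent evidence of BMP signalling. It holds Sp7 and Prrx2, which are among the 15 largest differences. Of 22 tested members of this list, 13 were called higher and 0 lower (12, 11, 12, 9, 9 and 12 called with each array left out), and their median difference was 0.91. On 17 of the 22 the groups did not overlap. The mean level over the list was 7.30, 7.31 and 7.53 in the BMP4 arrays and 6.14, 6.26 and 6.24 in the GREM1 arrays, with 6.83, 6.91 and 6.99 in the mock-treated arrays.

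The inhibitory SMADs are targets and feedback inhibitors at the same time. Smad7 read 8.93, 8.93 and 9.08 with BMP4 and 6.83, 7.01 and 6.48 with GREM1, and its difference was 2.21 ± 0.14 (SE; limma adjusted p = 0.00071). Smad6 read 7.06, 7.14 and 7.42 against 5.02, 5.34 and 4.57, and its difference was 2.23 ± 0.20 (SE; limma adjusted p = 0.00189). On both genes the groups stood well apart. The Id genes encode helix-loop-helix proteins without a DNA-binding region that hold back MYOD and its E-protein partners. Id1 read 9.83, 10.12 and 10.46 with BMP4 and 8.04, 8.37 and 8.48 with GREM1 (difference 1.84 ± 0.18, SE; limma adjusted p = 0.00261). Id3 read 8.96, 9.32 and 9.77 against 7.18, 7.43 and 8.05 (difference 1.80 ± 0.27, SE; limma adjusted p = 0.0132). For both genes replicate 3 was the highest array of each group. The call of Id3 was lost without BMP4 replicate 2, GREM1 replicate 1 or GREM1 replicate 2, with a highest adjusted p of 0.0812. Id2, at 8.43, 8.52 and 8.86 against 7.53, 7.56 and 8.27, did not pass the test (difference 0.81 ± 0.22, SE; adjusted p = 0.0812). It passed in the fit of all 9 arrays (limma adjusted p = 0.0473) and without GREM1 replicate 3 (0.0261), and without any other single array it did not (up to 0.265).

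Homeobox and vascular targets made up much of the rest, beside Sp7, which has been described above. Prrx2, a paired-related homeobox factor of mesenchyme, read 10.01, 9.92 and 9.99 with BMP4 and 7.68, 7.90 and 7.58 with GREM1 (difference 2.26 ± 0.10, SE; limma adjusted p = 0.00022). The mock-treated mean of 9.64 was close to the BMP4 arrays. Dlx2 and Dlx3, distal-less homeobox factors of branchial and skeletal mesenchyme, were higher by 1.63 and 1.34, and Hey1, a repressor shared by the BMP and Notch pathways, by 1.25. Vegfc, the lymphatic growth factor, was higher by 1.65. Smad9 (1.00), Gata3 (0.64) and Id4 (0.59) were also called; these 3 genes lie outside the naming rule and were picked after their values were seen. The 9 members that were not called ran from -0.03 (Zeb2) to 0.81 (Id2) and held both Msx genes, with Msx2 at 0.41 (adjusted p = 0.103). Dlx5 was left out as too dim, with group means of 3.25 and 3.30. Of 15 homeobox genes of BMP-responsive mesenchyme, the 3 called were Prrx2, Dlx2 and Dlx3, all higher with BMP4, and all 3 kept their calls with each array left out.

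RefSeq promoter sequences (build GRCm38.p6) were searched for the word GGCGCC, a GC-rich sequence to which SMAD1 and SMAD5 can bind, in the 250 bases before each transcription start. The word is its own reverse complement, so both strands were covered. It was found in 21.9% of the 462 promoters of genes higher with BMP4, in 13.9% of the 490 promoters of genes lower with BMP4, in 14.7% of the 16370 promoters of all genes tested and in 9.59% of the 32841 promoters in the table. Of 18 promoters of the BMP-SMAD target list, 7 held it. The SMAD words CAGACA and GTCTAGAC were also searched, on either strand. CAGACA was in 12.6% of the promoters of genes higher with BMP4 and in 14.9% of those of all genes tested. For GTCTAGAC these shares were 0.216% and 0.183%, and 0 of the 18 target promoters held either word. The promoters of Dlx2 and Vegfc are shown because both genes were called higher with BMP4 and hold the word GGCGCC, in capitals. That of Dlx2 is chr2:71546755-71547004 on the minus strand, with the word starting at position -99 from the start site, and that of Vegfc is chr8:54077282-54077531 on the plus strand, with the word at -24. The same windows of Id3, Smad6, Prrx2 and Fabp7 did not hold these letters.
Dlx2: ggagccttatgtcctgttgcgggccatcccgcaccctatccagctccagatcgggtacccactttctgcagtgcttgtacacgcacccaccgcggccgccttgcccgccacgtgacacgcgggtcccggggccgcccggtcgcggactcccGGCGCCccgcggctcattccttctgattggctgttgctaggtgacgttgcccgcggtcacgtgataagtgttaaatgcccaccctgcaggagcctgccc
Vegfc: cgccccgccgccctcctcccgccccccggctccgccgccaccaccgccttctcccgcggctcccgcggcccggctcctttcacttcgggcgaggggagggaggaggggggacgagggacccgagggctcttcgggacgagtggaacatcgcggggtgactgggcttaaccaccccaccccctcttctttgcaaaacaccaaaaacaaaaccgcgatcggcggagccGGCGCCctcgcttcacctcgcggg

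The genes of the BMP system itself differed less than its targets. Among 16 tested BMP, GDF and activin ligand genes, the 1 called was Inha, the inhibin alpha subunit (1, 0, 2, 0, 0 and 0 called with each array left out; median difference 0.029). Inha read 7.91, 7.89 and 6.61 with BMP4 and 6.09, 5.89 and 5.80 with GREM1, so BMP4 replicate 3 was closer to the GREM1 arrays than to the other BMP4 arrays, and the difference was 1.54 ± 0.33 (SE; limma adjusted p = 0.0459). The call of Inha was lost without every array other than BMP4 replicate 3 (highest adjusted p = 0.166). The transcript of Bmp4 was too dim to test, at group means of 3.77 with BMP4, 3.70 with GREM1 and 3.87 in the mock-treated arrays. Mstn, the muscle growth inhibitor myostatin, had a difference of 1.04 that did not pass the test (adjusted p = 0.0843).

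Of 17 secreted antagonists of BMP and activin, 4 were higher with BMP4 and 1 was lower (3, 3, 5, 2, 2 and 4 called with each array left out), with a median of 0.24. Grem1, the gene of the protein that was added to the other group, read 7.69, 7.75 and 7.29 with BMP4, 6.79, 6.76 and 6.71 with GREM1 and 7.54 on average in the mock-treated arrays. The difference was 0.83 ± 0.13 (SE; limma adjusted p = 0.0141), and it was lost without every array other than BMP4 replicate 3 (highest adjusted p = 0.0775). Crim1, a membrane-anchored BMP-binding protein, was higher with BMP4 by 1.62 ± 0.10 (SE; adjusted p = 0.00071), with 7.85, 7.87 and 8.16 against 6.33, 6.31 and 6.36. Htra3, a secreted serine protease, was higher by 1.21, and Fstl1, a follistatin-like glycoprotein, by 1.18. The Fstl1 call was lost without GREM1 replicate 1 or 2 (highest adjusted p = 0.0918). Nog, which encodes noggin, had a difference of 0.77 with an adjusted p of 0.0503.

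Of 17 receptors, co-receptors and SMADs, 1 was higher and 3 were lower (3, 2, 3, 2, 4 and 3 called with each array left out; median 0.045). Smad3, the transducer of TGF-beta and activin signals, read 6.54, 6.52 and 6.10 with BMP4 and 7.69, 7.75 and 7.65 with GREM1, a difference of -1.31 ± 0.13 (SE; limma adjusted p = 0.00252). Rgma and Rgmb, BMP co-receptors of the repulsive guidance family, were lower, at -1.17 and -0.58, and Acvr1, a type I receptor, was higher by 0.59. The Acvr1 call was lost without BMP4 replicate 2 or GREM1 replicate 1 (highest adjusted p = 0.0595) and that of Rgmb without every array other than GREM1 replicate 2 (0.111). The receptors Bmpr1a and Bmpr2 and the transducers Smad1, Smad4 and Smad5 were not called, with differences from -0.18 to 0.08; they were named after their values were seen.

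TGF-beta target genes were split. Of 18 tested, 3 were higher and 3 lower (6, 5, 8, 4, 4 and 6 called with each array left out), around a median of -0.0048. Acta2, smooth muscle actin, read 10.55, 10.71 and 10.71 with BMP4 and 11.44, 11.62 and 11.62 with GREM1 (difference -0.90 ± 0.09, SE; limma adjusted p = 0.00252). Ccn4, a matricellular protein gene, was lower, at -0.67, and Lox, the collagen cross-linking lysyl oxidase, was higher by 0.55. The remaining calls were Smad3, which this list shares with the previous one, and Tgfb1 (1.27) and Skil (0.62), both higher and both named after their values were seen. The call of Ccn4 was lost without GREM1 replicate 1 (adjusted p = 0.0528), and that of Acta2 was lost in the fit of all 9 arrays (0.0517). The best-known members, Ccn2 (0.31) and Fn1 (-0.01), were not called; both were named after their values were seen.

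Genes of cell division were higher with BMP4 than with GREM1 as a group. Of 61 tested mitosis genes, all 61 had the higher mean with BMP4, 22 were called higher and 0 lower, and the median difference was 0.70. On 55 of the 61 the groups did not overlap. The count of calls rested on single arrays, being 11, 5, 14, 2, 3 and 14 with each array left out. The mean level over the list was 7.56, 7.61 and 8.05 in the BMP4 arrays, 6.95, 6.90 and 7.26 in the GREM1 arrays and 7.52, 7.57 and 7.96 in the mock-treated arrays. Replicate 3 was the highest array in every group, and the BMP4 and mock-treated means nearly coincided.

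Ndc80, a kinetochore protein that grips spindle microtubules, read 7.25, 7.31 and 7.70 with BMP4 and 5.96, 5.98 and 6.40 with GREM1 (difference 1.31 ± 0.16, SE; limma adjusted p = 0.00717). Cdca2, a chromatin-bound regulator of the phosphatase PP1, read 7.15, 7.09 and 7.15 against 6.44, 6.42 and 6.52 (difference 0.67 ± 0.07, SE; limma adjusted p = 0.00359). Neither gene's arrays overlapped between the groups. Foxm1, the transcription factor that drives the genes of mitosis, was higher by 0.75, and Ckap2l, a mitotic spindle protein, by 0.87. Single arrays carried most of these calls: those of Ndc80 (0.0528) and Foxm1 (0.0598) were lost without GREM1 replicate 1 and that of Ckap2l without GREM1 replicate 2 (0.0549), with the highest adjusted p in parentheses. The call of Cdca2 was not lost in any of these fits.

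DNA replication and G1/S genes followed with smaller differences. Of 50 tested, 12 were higher with BMP4 and 1 was lower (7, 3, 5, 2, 2 and 8 called with each array left out), and the median was 0.48. Rrm2, the regulatory subunit of ribonucleotide reductase, read 10.28, 10.43 and 10.78 with BMP4 and 8.90, 8.90 and 9.13 with GREM1, without overlap, and differed by 1.51 ± 0.14 (SE; limma adjusted p = 0.00219). Tyms, thymidylate synthase, was higher by 0.83 and the licensing factor Cdt1 by 0.66. The call of Tyms was lost without GREM1 replicate 1 or 2 (highest adjusted p = 0.065) and that of Cdt1 without BMP4 replicate 2 and without each GREM1 replicate (0.0957). E2f2, an activating E2F factor, was the exception, lower with BMP4, at -0.97 ± 0.13 (SE; limma adjusted p = 0.00937).

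The pentamer CCAAT, read by the factor NF-Y, is known from promoters of mitotic genes. On either strand it was in 40 of the 55 promoters of the tested mitosis genes (72.7%) and in 28 of the 46 of the replication genes (60.9%), against 34.4% of the promoters of all genes tested and 33.9% of those in the table. The word TTTGAA, part of the cell cycle genes homology region, was in 34.5% of the mitosis promoters against 11.2% of those of all genes tested, and the E2F word TTTNGCGC in 15.2% of the replication promoters against 1.72%. These shares describe the lists, not the called genes alone: among all genes higher with BMP4, 32.9% of promoters held CCAAT. The promoter of Ckap2l, chr2:129297213-129297462 on the minus strand, is shown as a called mitosis gene with 3 matches, which are in capitals and start at -122, -40 and -14; the middle one is CCAAT on the other strand and reads ATTGG. The same windows of Ndc80 and Kif20b, also called mitosis genes, did not hold these letters.
Ckap2l: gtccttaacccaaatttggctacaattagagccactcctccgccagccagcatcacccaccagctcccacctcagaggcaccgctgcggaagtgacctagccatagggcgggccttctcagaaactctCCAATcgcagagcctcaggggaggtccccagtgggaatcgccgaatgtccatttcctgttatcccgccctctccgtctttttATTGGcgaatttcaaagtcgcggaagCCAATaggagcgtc

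Genes listed as cell cycle inhibitors or antiproliferative were called in both directions. Of 21 CDK inhibitors, pocket proteins and antiproliferative genes, 2 were higher and 2 lower (4, 2, 4, 2, 3 and 4 called with each array left out). Cdkn1c has been described above; the other CDK inhibitors tested, Cdkn1a (-0.13), Cdkn1b (-0.06) and Cdkn2c (-0.05) among them, were not called. Those 3 genes were named after their values were seen. Btg2, an antiproliferative immediate early gene, was higher with BMP4 by 1.09. Gas6, which encodes the ligand of the TAM receptors rather than a cell cycle inhibitor, was higher by 1.16. Gas1, a growth arrest gene, was lower, at -0.50. The Gas6 call was lost without BMP4 replicate 2, GREM1 replicate 1 or GREM1 replicate 2 (highest adjusted p = 0.0923), and that of Gas1 without BMP4 replicate 2 or GREM1 replicate 1 (0.0623).

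Feedback genes of receptor tyrosine kinases differed in both directions even within a family. Of 19 tested, 3 were higher and 2 lower (4, 4, 5, 4, 4 and 4 called with each array left out). Spry2 read 9.53, 9.51 and 9.66 with BMP4 and 8.79, 8.63 and 8.55 with GREM1, a difference of 0.91 ± 0.09 (SE; limma adjusted p = 0.00274). Its paralogue Spry1, described above, lay on the opposite side. Dusp2, a nuclear phosphatase of ERK, was higher by 1.11, and Lrig1, which promotes degradation of growth factor receptors, was lower, at -0.94. These 4 genes kept their calls with each array left out. Of 25 immediate early genes, 7 were higher and 2 lower (4, 3, 5, 4, 5 and 7 called). Nr4a2, an orphan nuclear receptor, read 8.49, 8.55 and 8.85 against 7.05, 6.95 and 6.94 (difference 1.65 ± 0.11, SE; limma adjusted p = 0.000747), and Klf10, a TGF-beta-inducible factor, was higher by 1.02. Zfp36, which encodes the mRNA-destabilising protein tristetraprolin, was lower, at -0.86, a call lost without BMP4 replicate 2 or GREM1 replicate 1 (highest adjusted p = 0.079). Fos (0.03) and Jun (0.11), named after their values were seen, were not called.

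The core myogenic factors were not among the called genes. Myod1 read 9.64, 9.72 and 9.94 with BMP4 and 9.38, 9.62 and 9.84 with GREM1, overlapping groups with a difference of 0.15 ± 0.14 (SE; limma adjusted p = 0.599). Myog, the factor of terminal differentiation, read 10.55, 10.72 and 9.70 against 10.75, 11.05 and 10.94. BMP4 replicate 3 was below all the others, and the difference of -0.59 ± 0.25 (SE; limma adjusted p = 0.255) did not pass. Pax7, the satellite cell factor, had a difference of 0.36 (adjusted p = 0.268), and Myf5 one of 1.02 (adjusted p = 0.0791). Partners of these factors did differ. Of 23 myogenic transcription factors and partners, 0 were higher with BMP4 and 4 lower (3, 1, 4, 0, 1 and 3 called with each array left out), with a median of -0.17. Mef2d, a MADS-box activator of muscle genes, read 9.37, 9.35 and 8.93 against 10.36, 10.41 and 10.09 (difference -1.07 ± 0.15, SE; limma adjusted p = 0.00991). Mef2a was lower, at -0.88, the RNA-binding protein gene Rbm38 at -0.66 and Srf, the serum response factor, at -0.45. None of the 4 kept its call without GREM1 replicate 1, and their highest adjusted p-values were 0.0644 (Mef2d), 0.0539 (Mef2a), 0.0976 (Rbm38) and 0.0984 (Srf).

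Surface genes of satellite cells and myoblasts differed in opposite directions. Of 21 tested, 3 were higher with BMP4 and 5 lower (7, 6, 9, 6, 7 and 8 called with each array left out). Cdh15, the myoblast adhesion molecule M-cadherin, read 7.50, 7.52 and 7.40 with BMP4 and 8.72, 8.67 and 8.72 with GREM1, and its difference was -1.23 ± 0.07 (SE; limma adjusted p = 0.000694). Itga7, the integrin subunit that binds muscle laminin, read 8.52, 8.62 and 8.41 against 9.52, 9.55 and 9.60 (difference -1.04 ± 0.08, SE; limma adjusted p = 0.00118). Both were tightly grouped, with every BMP4 array about 1 log2 unit below every GREM1 array. Dag1, which encodes dystroglycan, was lower, at -1.26. In the other direction Cxcr4, the receptor of the chemokine CXCL12, read 7.74, 8.08 and 7.67 against 6.09, 6.16 and 6.10 (difference 1.72 ± 0.12, SE; limma adjusted p = 0.000768). Of 23 fusion genes, Cdh15 and Dysf (-1.05) were lower and Boc (0.80) was higher (2, 1, 2, 1, 1 and 1 called). The calls of Dysf (highest adjusted p = 0.109) and Boc (0.153) were lost without BMP4 replicate 2 and without each GREM1 replicate, and that of Boc also without BMP4 replicate 1 or 3. Mymx (-0.87, adjusted p = 0.0661) and Mymk (-0.35, adjusted p = 0.18), the membrane fusogens myomixer and myomaker, were not called.

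Most genes of the contractile apparatus had the higher mean with GREM1, but 4 of 51 were called, beside 5.66% of all genes tested. Of 51 tested sarcomere and contractile genes, 41 had the lower mean with BMP4, 3 were called lower and 1 higher (3, 3, 5, 2, 2 and 3 called with each array left out), and the median was -0.29. The mean level over the list was 9.35, 9.42 and 8.78 with BMP4 and 9.55, 9.57 and 9.33 with GREM1. These means overlapped between the groups, and replicate 3 was the lowest of each group. Ckm, which regenerates ATP from phosphocreatine, read 6.55, 6.78 and 5.93 with BMP4 and 8.09, 8.39 and 8.71 with GREM1 (difference -1.98 ± 0.24, SE; limma adjusted p = 0.00638). Unc45b, a chaperone of muscle myosin, was lower, at -1.13, and the fast myosin heavy chain gene Myh4 at -0.90, while Nebl, a nebulin-like thin filament gene, was higher by 0.73. Unc45b lost its call without every array other than BMP4 replicate 3 (highest adjusted p = 0.137), and Myh4, whose BMP4 values were all below the limit for testing, without GREM1 replicate 1 or 2 (0.06). The filament genes Acta1 (-0.10), Des (-0.03) and Ttn (-0.33) were not called; these 3 were named after their values were seen.

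Most genes of calcium handling and the synapse also had the higher mean with GREM1. The called share over all genes tested was 5.66%. The mean level over the excitation-contraction coupling list was 7.84, 7.86 and 7.30 with BMP4 and 8.14, 8.14 and 7.91 with GREM1, replicate 3 being the lowest of each group. Of 24 excitation-contraction coupling genes, 23 had the lower mean with BMP4 and 2 were called lower (2, 1, 3, 0, 0 and 1 called with each array left out; median -0.38): Mrln, the SERCA inhibitor myoregulin, at -1.01 ± 0.15 (SE; limma adjusted p = 0.0117), and Atp2a1, the fast-muscle calcium pump, at -0.95 ± 0.16 (SE; limma adjusted p = 0.0215). The highest adjusted p-values of these calls, which were lost without GREM1 replicates 1 and 2, were 0.0708 and 0.109; that of Atp2a1 was lost without BMP4 replicate 2 and GREM1 replicate 3 as well. Of 19 neuromuscular synapse genes, 5 were lower with BMP4 and 0 higher (3, 2, 4, 1, 2 and 2 called; median -0.29), Dag1 among them. Chrng, the fetal gamma subunit of the acetylcholine receptor, read 10.79, 10.85 and 10.57 with BMP4 and 11.25, 11.37 and 11.39 with GREM1, a difference of -0.60 ± 0.10 (SE; limma adjusted p = 0.0171). Colq, the collagen tail of acetylcholinesterase, was lower, at -0.76, and Chrnd, the receptor's delta subunit, at -0.58. Without GREM1 replicate 1 all 3 of these calls were lost, and the highest adjusted p-values were 0.0855 (Chrng), 0.0545 (Colq) and 0.157 (Chrnd).

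The E-box CAGCTG, a palindrome that MYOD and MYOG bind, was in 18 of the 49 promoters of tested sarcomere genes (36.7%), against 13.1% of the promoters of all genes tested and 13.0% of those in the table. Among all genes lower with BMP4 the share was 14.7%. The promoter of Chrng, chr1:87205561-87205810 on the plus strand, is shown because this called muscle gene holds the word at -155 and at -132, in capitals. Chrng belongs to the neuromuscular synapse list, not to the sarcomere list of the shares above. The same window of Ckm, a called sarcomere gene, held the word at -249 only.
Chrng: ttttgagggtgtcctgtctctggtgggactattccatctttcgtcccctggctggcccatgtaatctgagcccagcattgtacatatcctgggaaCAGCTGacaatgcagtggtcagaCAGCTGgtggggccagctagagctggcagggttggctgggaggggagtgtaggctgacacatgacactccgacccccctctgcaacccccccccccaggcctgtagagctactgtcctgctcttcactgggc

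**Figure D3:**
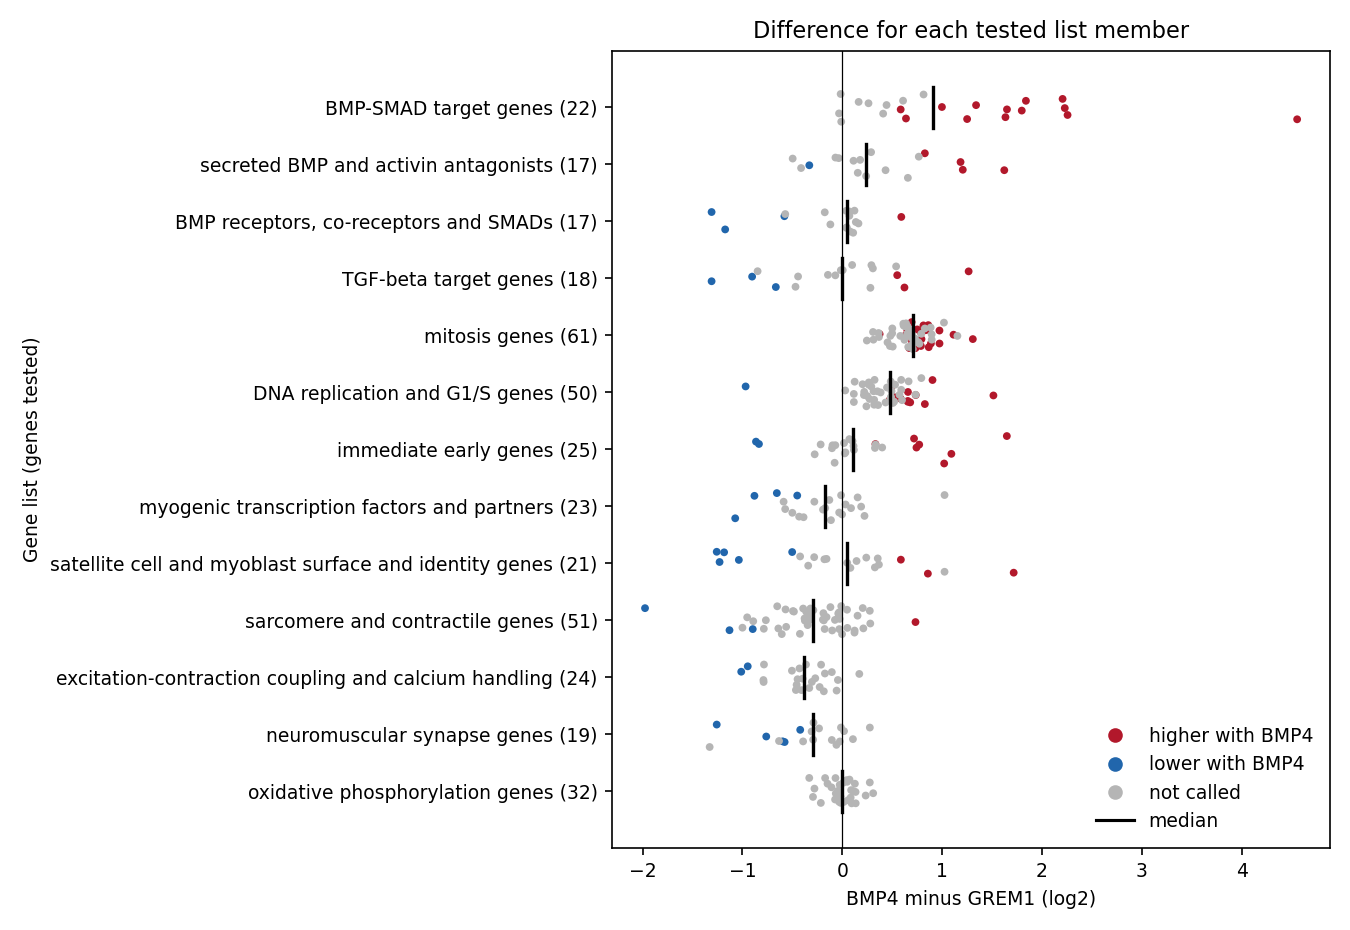
Difference of the group means (BMP4 minus GREM1, log2) for each tested member of 13 gene lists, in red where called higher with BMP4, in blue where called lower and in grey otherwise, with a black bar at the list median. All 61 mitosis genes lie above 0, 41 of 51 sarcomere genes and 23 of 24 excitation-contraction coupling genes lie below 0, and the oxidative phosphorylation genes scatter around 0.

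Genes of muscle mass control held some of the largest muscle-related differences. Asb2 read 4.97, 4.85 and 4.84 with BMP4 and 6.71, 6.97 and 7.09 with GREM1 (difference -2.04 ± 0.11, SE; limma adjusted p = 0.000514). Fbxo32, the atrophy ubiquitin ligase atrogin-1, read 6.31, 6.37 and 6.15 against 7.54, 7.74 and 7.98 (difference -1.48 ± 0.13, SE; limma adjusted p = 0.00162). Neither gene's groups overlapped. Trim63, the other classical atrophy ligase, was not called (-0.56, adjusted p = 0.365) and was named after its values were seen. Asb5 was higher with BMP4 by 0.40, a call lost without every array other than GREM1 replicate 3 (highest adjusted p = 0.111). In all, 3 of the 19 genes of this list were called (2, 2, 3, 2, 2 and 3 with each array left out).

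Markers of other lineages were called gene by gene rather than as whole lists. Of 14 tested osteoblast genes, 4 were higher with BMP4 and 0 lower (4, 4, 4, 3, 4 and 4 called with each array left out). These were Sp7, Dlx3, Tmem119 (1.10), an osteoblast membrane protein gene, and Ank (0.75), a pyrophosphate transporter; the call of Ank was lost without GREM1 replicate 1 (adjusted p = 0.0521). The defining genes of later bone cells did not follow. Bglap, which encodes osteocalcin, read 4.88, 4.95 and 4.33 with BMP4 and 4.99, 5.28 and 5.06 with GREM1, and was not called (-0.39). Alpl, the alkaline phosphatase, was not called either (-0.12), and Ibsp, bone sialoprotein, was below the limit for testing in every array, between 3.06 and 3.17. Over the 18 osteoblast genes on the array the mean level was 5.87 to 5.96 with BMP4, 5.46 to 5.53 with GREM1 and 5.69 to 5.76 in the mock-treated arrays. The 4 called genes carried this gap: the median difference of the 14 tested genes was 0.039, with 8 above and 6 below 0.

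Of 17 adipocyte genes, 3 were higher and 1 lower (4, 3, 4, 3, 3 and 4 called with each array left out). Pparg, the nuclear receptor of fat cell differentiation, read 6.78, 7.12 and 7.04 with BMP4 and 5.59, 5.49 and 5.48 with GREM1 (difference 1.46 ± 0.10, SE; limma adjusted p = 0.000953). Fabp5 was higher by 1.34, a call lost without BMP4 replicate 2, GREM1 replicate 1 or GREM1 replicate 2 (highest adjusted p = 0.0778), and Ppargc1a, a coactivator of mitochondrial genes, was lower, at -0.70. Fabp4 and Adipoq, the defining genes of mature fat cells, were below the limit for testing, with highest values of 2.78 and 3.37 over the 9 arrays. The third gene called higher was Fabp7, described above. The mean level over 22 adipocyte genes was 5.41 to 5.46 with BMP4 and 5.03 to 5.07 with GREM1, a gap carried mostly by Fabp7, Pparg and Fabp5. The median difference of the 17 tested genes was 0.13, and most had the higher mean with BMP4, with 15 above and 2 below 0.

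Selp was the 1 called gene of 12 tested endothelial genes, and the endothelial markers Pecam1 (4.40 to 4.73 over the 9 arrays) and Cdh5 (3.60 to 4.26) stayed near the limit for testing. The mean level over 21 endothelial genes was 4.29 to 4.37 with BMP4 and 4.17 to 4.23 with GREM1, a gap that Selp alone carried: the median difference of the 12 tested genes was -0.0026, with 6 above and 6 below 0. Of 12 leukocyte genes Cd14 was called, higher by 0.57 against GREM1 values that were all below the limit for testing, while Ptprc and Adgre1 were too dim to test. Of 15 pericyte and smooth muscle genes, Mcam (1.06) and Cspg4 (0.56) were higher and Abcc9 (-0.91) and Acta2 lower (3, 1, 4, 1, 3 and 3 called). Of 14 fibroblast and fibro-adipogenic genes, Pdgfrl (1.23) was called, and the mean level of that list was 4.91 to 5.00 with BMP4 and 4.92 to 4.95 with GREM1. Scx (-0.95) and Col12a1 (1.01) of 11 tendon genes, Pmp22 (-1.22) of 11 Schwann and glial genes and Sox6 (-0.71) of 12 cartilage genes were also called. Of the genes in this paragraph, Selp and Pdgfrl kept their calls with each array left out. The others lost theirs without at least BMP4 replicate 2 and GREM1 replicate 1, apart from Acta2, and their highest adjusted p-values ran from 0.0614 (Cspg4) to 0.188 (Pmp22). Whether other cell types in the cultures had a part in these differences was not tested.

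**Figure D4:**
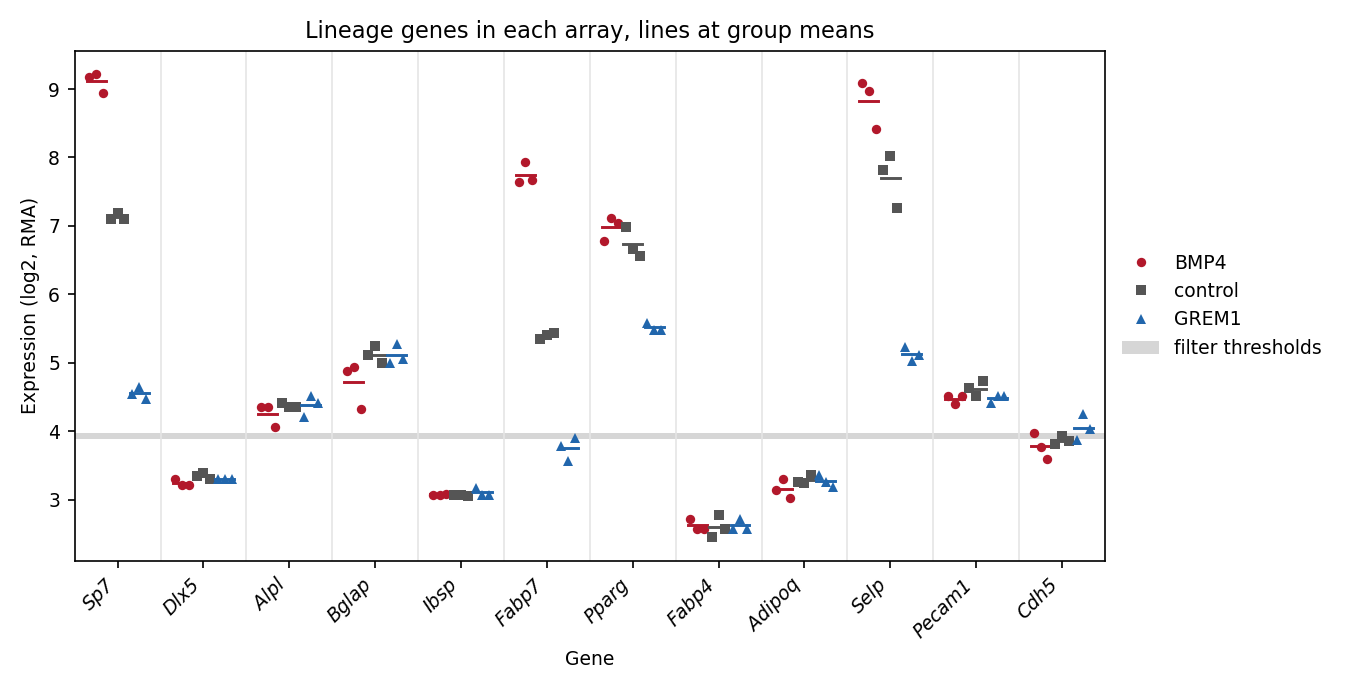
Level (log2 RMA value) of 12 lineage genes in each array, with BMP4 as red circles, mock-treated control as grey squares, GREM1 as blue triangles, lines at the group means and a grey band at the limits for testing (3.89 to 3.97). Sp7, Fabp7, Pparg and Selp are higher with BMP4, whereas Dlx5, Ibsp, Fabp4 and Adipoq lie below the band in every array.

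Lists of signalling genes outside the BMP pathway were called in both directions; over all genes tested the called share was 5.66%. Of 24 FGF, VEGF and PDGF ligands and receptors, 4 were higher and 2 lower (4, 3, 5, 3, 3 and 3 called with each array left out). Fgf9 read 4.07, 4.01 and 4.14 with BMP4 and 5.85, 5.77 and 5.90 with GREM1 (difference -1.76 ± 0.08, SE; limma adjusted p = 0.00022). Vegfc read 8.30, 8.19 and 8.69 against 6.84, 6.77 and 6.62 (difference 1.65 ± 0.14, SE; limma adjusted p = 0.00158), and Pdgfc was higher by 1.15. Neither Fgf9 nor Vegfc overlapped between the groups. Pgf, placental growth factor, was higher by 1.26, a call lost without BMP4 replicate 2 and without each GREM1 replicate (highest adjusted p = 0.128). Of 15 IGF genes, Igfbp7 (1.32) was higher and Igfbp3 (-0.85) and the receptor gene Igf1r (-0.65) were lower (3, 2, 3, 0, 2 and 4 called), all 3 of them lost without GREM1 replicate 1, with highest adjusted p-values of 0.0584, 0.0546 and 0.0644.

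Of 24 Notch pathway genes, 4 were higher and 2 lower (5, 4, 6, 4, 5 and 5 called with each array left out). Lfng, a glycosyltransferase that tunes Notch receptors, read 7.38, 7.66 and 7.42 with BMP4 and 5.66, 5.99 and 5.81 with GREM1 (difference 1.67 ± 0.12, SE; limma adjusted p = 0.00087). The receptor gene Notch1 read 7.01, 6.86 and 6.97 against 7.89, 7.89 and 7.74, on the opposite side (difference -0.89 ± 0.08, SE; limma adjusted p = 0.00215), and Dtx4, a ubiquitin ligase of the pathway, was lower, at -0.98. Of 40 Wnt pathway genes, 4 were higher and 1 lower (4, 4, 5, 4, 4 and 6 called). Lgr6 read 8.83, 8.61 and 9.05 against 5.72, 5.60 and 5.84 (difference 3.11 ± 0.13, SE; limma adjusted p = 0.00022). Fzd6, a Wnt receptor, was higher by 0.96 and Sfrp2, a secreted Wnt-binding protein, by 1.65, while Lef1, a transcription factor of the pathway, was lower, at -1.08. Axin2, the usual readout of Wnt signalling, had a difference of -0.18 (adjusted p = 0.37) and was named after its values were seen.

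Among genes of the extracellular matrix, 4 of 32 collagen and lysyl oxidase genes were higher with BMP4 and 2 lower (4, 3, 6, 3, 4 and 4 called with each array left out). P4ha3, a prolyl hydroxylase of collagen, read 5.41, 5.34 and 5.84 with BMP4 and 4.17, 4.12 and 4.15 with GREM1 (difference 1.38 ± 0.13, SE; limma adjusted p = 0.00252). Loxl1, a lysyl oxidase of elastic fibres, was lower, at -0.62. Of 21 metalloproteinases and inhibitors, 3 were higher (1, 1, 3, 1, 1 and 1 called), of which Mmp16, a membrane-type protease, differed by 1.19 and kept its call with each array left out. Of 24 integrin genes, 3 were higher and 3 lower (2, 2, 3, 2, 2 and 3 called). Itga3, a laminin-binding subunit, read 7.69, 7.70 and 7.73 against 9.15, 9.11 and 8.83 (difference -1.32 ± 0.10, SE; limma adjusted p = 0.00111), on the same side as Itga7. Itga4, whose product binds VCAM1, was higher by 1.17, a call lost without every array other than BMP4 replicate 3 (highest adjusted p = 0.124).

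Of 20 genes in the chemokine and cytokine list, 4 were higher and 0 lower (4, 3, 4, 2, 2 and 5 called with each array left out). The list also holds the cyclooxygenase gene Ptgs2, which is neither and had its largest difference. Ptgs2 read 9.02, 9.35 and 9.48 with BMP4 and 6.88, 6.78 and 6.89 with GREM1 (difference 2.43 ± 0.13, SE; limma adjusted p = 0.000423). Cxcl12, the ligand of CXCR4, read 9.02, 9.19 and 9.77 against 7.49, 7.46 and 8.10, so that the ligand and its receptor gene Cxcr4 were both higher with BMP4. The Cxcl12 difference was 1.64 ± 0.24 (SE; limma adjusted p = 0.012), and its call was lost without BMP4 replicate 2, GREM1 replicate 1 or GREM1 replicate 2 (highest adjusted p = 0.077). Csf1, macrophage colony-stimulating factor, was higher by 1.20, a call lost without GREM1 replicate 1 or 2 (0.0647).

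Housekeeping, metabolic and stress lists held 0 to 4 calls each, beside a called share of 5.66% over all genes tested. The list with 4 calls was that of 28 glycolysis and hypoxia genes. None of 32 oxidative phosphorylation genes was called by limma, and 0 had an unadjusted p below 0.05; the median was -0.0032. None of 19 interferon-induced genes was called, with 5 at an unadjusted p below 0.05, although the Ifi200 genes Ifi203-ps and Mndal were among the largest differences and Ifi204 of this list read 5.53, 6.55 and 7.18 against 4.82, 4.52 and 5.23 (adjusted p = 0.072). Of 27 ribosomal protein genes Rps16 was called, higher by 0.98 (adjusted p = 0.0102, or 0.0527 without BMP4 replicate 2). The list median was 0.15, with 24 genes above and 3 below 0. Of 28 glycolysis and hypoxia genes, Pfkp (0.72), the platelet-type phosphofructokinase, and Vegfa (0.43) were higher, and Pygm (-0.88), the muscle glycogen phosphorylase, and Gys1 (-0.77), the muscle glycogen synthase, were lower (3, 2, 3, 2, 2 and 3 called). The calls of Vegfa (highest adjusted p = 0.122) and Gys1 (0.088) were lost without BMP4 replicate 2, GREM1 replicate 1 or GREM1 replicate 2, and that of Vegfa without each of the other arrays too. Of 27 cholesterol and fatty acid synthesis genes Dhcr7 (-0.42) and Srebf2 (-0.31) were called, of 25 unfolded protein response genes Herpud1 (-0.52), and of 20 p53 targets Btg2. The first 2 lost their calls without any single array (highest adjusted p = 0.117 and 0.133), and Herpud1 without any array other than GREM1 replicate 1 (0.153).

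The mock-treated arrays did not enter the contrast, and for most called genes their mean lay closer to the BMP4 mean than to the GREM1 mean. This was so for 798 of the 958 called genes, and for 817, 790 and 755 with mock-treated replicate 1, 2 or 3 left out. Of the 522 genes higher with BMP4, the control mean was beyond the BMP4 mean for 83, between the means and nearer BMP4 for 322, between and nearer GREM1 for 113 and beyond GREM1 for 4. On a scale from the GREM1 mean at 0% to the BMP4 mean at 100%, its median position was 70.3%. Of the 436 genes lower with BMP4 these numbers were 81, 312, 41 and 2, with a median position of 80.4%.

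The lists differed in this position. Over the 13 called BMP-SMAD targets the control mean was between the groups for all 13, at a median of 55.5% of the way. Over the 22 called mitosis genes and the 13 called replication genes the median was 92.4%, and over the 4 called myogenic factors and partners 95.2%. Smad7 stood at 46.5% and Fabp7 at 41.0%, near the middle. The GREM1 values of Fabp7 were all below the limit for testing, so its position is uncertain. Foxm1 stood at 112.6% and Mef2a at 98.6%, at the BMP4 level. Tmem119 (20.6%), Btg2 (20.9%) and Ppargc1a (17.7%) stood near the GREM1 level. In a fit of all 9 arrays, BMP4 against control gave 27 calls (0.160% of genes tested) and GREM1 against control 749 (4.43%). These 2 comparisons share the control arrays, and each shares its treated arrays with the contrast described here. For the BMP-SMAD targets the median difference was 0.42 for BMP4 minus control and -0.63 for GREM1 minus control.

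**Figure D5:**
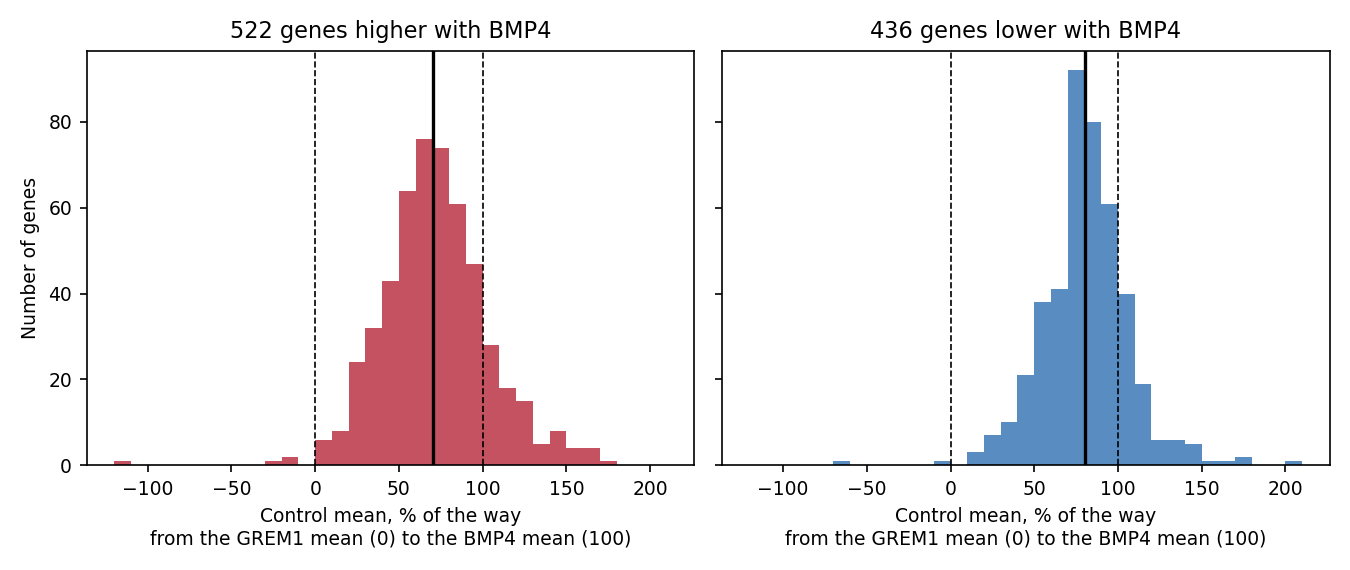
Position of the mock-treated mean on a scale from the GREM1 mean (0%) to the BMP4 mean (100%), as the number of called genes in bins of 10%, for the 522 genes higher (left) and the 436 genes lower with BMP4 (right), with a solid line at the median. The medians are 70.3% and 80.4%, and most of both distributions lies between 0% and 100%.

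Of the 958 genes, 406 passed the test neither for BMP4 against control nor for GREM1 against control in the fit of all 9 arrays; 240 of them were higher with BMP4 and 166 lower. Missing those thresholds does not show that either protein left them at the control level. The largest differences among those higher were Mndal, Id3, Cxcl12, Inha and Prr9, a proline-rich protein gene at 4.95, 5.39 and 5.73 against 4.07, 3.87 and 3.73 (difference 1.47 ± 0.20, SE; limma adjusted p = 0.0088). Id3 read 7.39, 8.59 and 9.12 in the mock-treated arrays, a range wider than that of either treated group. Among those lower were Gbp8, Tm6sf1, Popdc2 (-1.45), a cyclic AMP-binding membrane protein gene of muscle, Filip1 (-1.38), a filamin-interacting protein gene, and Cavin2 (-1.35), a coat protein gene of caveolae. Gbp8 read 5.98, 6.75 and 6.43 with BMP4, had a mean of 8.22 ± 0.29 (SD, n = 3 arrays) with GREM1 and averaged 7.44 in the mock-treated arrays, and it kept its call with each array left out. The calls of Filip1 and Cavin2 were lost without every array other than BMP4 replicate 3 (highest adjusted p = 0.17 and 0.159), that of Popdc2 without BMP4 replicate 2, GREM1 replicate 1 or GREM1 replicate 2 (0.13), and that of Prr9 without BMP4 replicate 2 or GREM1 replicate 2 (0.0569).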

How the data were processed

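The data are Affymetrix arrays of RNA amplified from 50 ng of total RNA, per the labels' protocols. The submitters' processing notes name Affymetrix Expression Console and RMA, with no versions, array model or annotation build given in the sources used here. The authors deposited log2 expression values, with array medians between 5.00 and 5.12; RMA brings arrays to 1 distribution, so a shift of all RNAs in a group would not be seen. Precision is limited by the number of arrays, and the median standard error of a difference was 0.104 on the log2 scale.

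Probe sets were named from the platform's annotation, with symbols checked through Entrez identifiers, which changed none: of 24973 probe sets, 24015 had 1 gene and 958 none, and 23922 of the named ones matched the current gene table. Where a gene had more than 1 probe set, as 4 genes had, the probe set that was highest on average in the 6 arrays was kept. Differences were tested with limma 3.58.1 in R 4.3.3 (lmFit and eBayes on the BMP4 and GREM1 arrays) with Benjamini-Hochberg adjustment, and the code was tested on simulated data. Alternatives were other filters, normalizations, variance priors, array weights, the replicate block, all 9 arrays in 1 fit and each array left out.

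The members and the 42 gene lists, which were written from general knowledge, were chosen with earlier results of these data known, so no list is independent evidence. The rule for naming took, among called genes without overlap, the 15 largest differences in each direction (predicted genes and clones skipped), from every list at most 4 members, those lowest in unadjusted p, the genes Bmp4, Grem1, Id1, Id2, Id3, Smad6, Smad7, Myod1, Myog, Pax7 and Cdkn1c, and the 5 largest in each direction among genes passing neither comparison with control. Any other gene, the uncalled lineage markers included, was named after its values were seen.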

Additional observations from a re-analysis of the deposited data

Results flagged for a closer look

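Probe sets without a gene name took no part in the comparison of genes. Of 702 such probe sets above the same limit, 38 differed between BMP4 and GREM1 in a limma fit of all probe sets, named and unnamed, with adjustment over all of those tested (5.41%), 24 higher and 14 lower with BMP4, with differences from -1.23 to 1.90 on the log2 scale. For 23 of the 38, all arrays of 1 treated group lay above every mock-treated array, against 92 of the 702 tested (13.1%); the 38 were chosen for a difference between the treated groups, which favours this.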

How the results depend on the processing

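With 1 array left out, the number of called genes ranged from 256 to 700, of genes higher with BMP4 from 145 to 376 and of genes lower from 111 to 324; the fewest calls came without GREM1 replicate 1. Array weights gave 1518 calls (839 higher, 679 lower), of which 951 were among the 958. The count stayed within 1.5 times under an intensity trend (977), quantile normalization (1074), centring on medians (964), the mean of probe sets (958), the 50th percentile as the filter (1124), all 9 arrays in the fit (1124) and no filter (704 of 24011 genes). Of 135 called genes named by the rule, 72 kept their call in every setting and 0 changed sign; 58 lost it without GREM1 replicate 1, 48 without BMP4 replicate 2 and 15 with no filter. The number of called genes with the control closer to BMP4 ranged from 755 to 817 with 1 control array left out.

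The labels number the replicates alike in both groups. With the replicate number as a block, 1821 genes were called (1020 higher, 801 lower), 944 of them among the 958, and the lists held 57 mitosis, 28 replication, 12 sarcomere and 7 excitation-contraction coupling genes called. Id2 was called with the block (adjusted p = 0.00808) and with array weights (0.0288). The deviations of same-numbered arrays from their group means had correlations of 0.229, 0.0952 and 0.429. Those of differently numbered arrays ran from -0.390 to 0.236, the highest being BMP4 replicate 1 with GREM1 replicate 2. Over the levels of all genes tested, the mock-treated array that correlated best with BMP4 replicate 3 was replicate 3 (0.992). For BMP4 replicates 1 and 2 and for all 3 GREM1 replicates it was mock-treated replicate 2 (0.985 to 0.992). The labels do not say what the numbers stand for, so the main fit has no block, and whether they pair the samples was not settled. Values near the floor of the array, as those of Fabp7 with GREM1, leave the size of a difference uncertain.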
